A study of Mus musculus with 2 samples.

Results

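Cycling macrophages of the MC38 tumor were described in single-cell libraries of 2 groups, MWA and MWA plus TIGIT, each with 1 library. Barcodes with under 200 genes or over 10% mitochondrial UMIs were left out. A UMI, or unique molecular identifier, is a tag that marks 1 captured RNA molecule. A kept barcode was taken as a macrophage when it held at least 10 UMIs of C1qa, C1qb and C1qc together and 0 UMIs of Cd3d, Cd3e and Cd3g. It was taken as cycling when it also held at least 3 UMIs of Mki67 and Top2a together. By this rule 956 of 19950 kept barcodes were cycling macrophages, 433 of 10037 in the MWA library and 523 of 9913 in the MWA plus TIGIT library. The cells were selected on counts of the same libraries, so the levels of these genes, and every difference between cycling and non-cycling macrophages, are given as a description with no test. Non-cycling macrophages are those with 0 UMIs of Mki67 and Top2a, 2831 and 3068 cells.

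MC38, a mouse colon cancer line, was grown under the skin of both flanks of C57BL/6 mice aged 6 to 8 weeks. In both groups the tumor of the right flank was treated by microwave ablation (MWA), which destroys tissue by heat, at a volume near 300 mm3. CD45+ cells, that is leukocytes, were taken on day 8 from the tumor of the left flank, which had received no ablation. In the MWA plus TIGIT group an antibody against TIGIT, an inhibitory receptor of T and NK cells, was injected into the peritoneum from day 1 at an interval of 3 days. The labels give 3 injections and the methods another number. The MWA group received MWA and, by the methods, an isotype control antibody. The number of mice behind each library is not given in the sources used here, and no library of untreated tumors was analysed here. Each group has a single library, so the groups were not tested against each other, and treatment cannot be told apart from any other difference between the 2 libraries. Intervals are at 95%. They are exact binomial for a share, exact Poisson for a level and conditional binomial for a log2 ratio of levels, and they cover counting error only.

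All kept barcodes together held 65982652 UMIs in the MWA library and 78454314 in the MWA plus TIGIT library. The libraries shared 37 barcode sequences, and none of these was a cycling macrophage in both. The methods describe the mice as male. Xist, the RNA that coats the inactive X chromosome of female cells, was detected in 416 of the 433 and 504 of the 523 cycling macrophages, and in 80.4% and 81.9% of all kept barcodes. Of the Y-linked genes Ddx3y, Eif2s3y, Kdm5d and Uty, the cycling macrophages held 0 UMIs in the MWA library and 1 UMI, of Uty, in the MWA plus TIGIT library. The counts of both libraries therefore go against the stated sex. These genes were looked at after other values had been seen.

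Macrophages of tumors arise largely from blood monocytes that mature in the tissue, and part of them divide there. C1qa, C1qb and C1qc encode the chains of C1q, the recognition protein of the classical complement pathway, and are markers of mature tissue macrophages. Mki67 encodes a protein that covers the surface of mitotic chromosomes, and Top2a an enzyme that untangles DNA strands during replication and chromosome segregation. In a dividing cell the genes of replication licensing and DNA synthesis are read first, under E2F factors. The genes of mitosis follow later in the cycle, many of them through the CHR and CCAAT elements of their promoters, which are bound by the DREAM and MMB complexes and by the factor NF-Y. The C1q genes lie side by side on chromosome 4 of the mouse build GRCm38 (C1qa at chr4:136895917-136898803, C1qb at chr4:136880129-136886187 and C1qc at chr4:136889804-136893065). Mki67 lies at chr7:135689784-135716361 and Top2a at chr11:98992943-99024189.

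Promoters of genes that the selection used, or that stand for each phase, are shown here because both phases recur through the results below. Each sequence runs 5′ to 3′ on the strand of its gene, from 250 bases before to 50 bases after the transcription start, and was taken from RefSeq on GRCm38.p6. Capitals mark matches to CCAAT, to the CHR motif TTTGAA and to the E2F motif TTTNGCGC on either strand, and matches of different motifs may share letters.
Mki67, chr7:135716330-135716629, minus strand: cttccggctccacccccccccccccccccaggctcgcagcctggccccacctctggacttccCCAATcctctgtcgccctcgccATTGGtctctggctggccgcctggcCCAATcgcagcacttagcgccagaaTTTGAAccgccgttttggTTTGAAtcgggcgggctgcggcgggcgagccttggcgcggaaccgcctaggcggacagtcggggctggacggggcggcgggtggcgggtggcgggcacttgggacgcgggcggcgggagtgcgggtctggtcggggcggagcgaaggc
Top2a, chr11:99024140-99024439, minus strand: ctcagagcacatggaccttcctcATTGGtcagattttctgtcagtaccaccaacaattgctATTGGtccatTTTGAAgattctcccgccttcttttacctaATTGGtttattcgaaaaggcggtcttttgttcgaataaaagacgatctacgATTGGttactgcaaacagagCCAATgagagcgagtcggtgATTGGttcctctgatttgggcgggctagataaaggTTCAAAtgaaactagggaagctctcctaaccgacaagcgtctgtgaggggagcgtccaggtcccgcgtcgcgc
Mcm5, chr8:75109259-75109558, plus strand: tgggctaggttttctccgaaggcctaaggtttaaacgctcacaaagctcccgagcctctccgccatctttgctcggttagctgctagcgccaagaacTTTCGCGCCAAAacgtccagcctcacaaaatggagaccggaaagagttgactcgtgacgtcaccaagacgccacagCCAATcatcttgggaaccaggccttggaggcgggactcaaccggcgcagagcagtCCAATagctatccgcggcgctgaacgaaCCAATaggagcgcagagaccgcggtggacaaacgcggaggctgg
Ccnb2, chr9:70421505-70421804, minus strand: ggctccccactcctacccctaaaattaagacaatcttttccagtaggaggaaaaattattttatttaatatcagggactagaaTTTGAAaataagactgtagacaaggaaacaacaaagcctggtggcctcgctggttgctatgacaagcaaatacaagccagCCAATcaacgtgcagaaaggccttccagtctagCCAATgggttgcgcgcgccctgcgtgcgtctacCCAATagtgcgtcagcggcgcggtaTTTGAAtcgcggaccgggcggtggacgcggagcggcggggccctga
Cdc20, chr4:118437294-118437593, minus strand: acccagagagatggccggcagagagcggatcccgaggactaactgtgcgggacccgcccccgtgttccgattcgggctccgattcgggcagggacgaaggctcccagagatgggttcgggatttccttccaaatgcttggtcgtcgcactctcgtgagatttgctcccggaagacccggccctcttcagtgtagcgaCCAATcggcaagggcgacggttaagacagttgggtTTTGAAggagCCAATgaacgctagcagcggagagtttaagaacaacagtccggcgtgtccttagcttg
Mki67 held 2 CHR matches and 3 CCAAT matches, and Top2a held 2 and 6. Mcm5, a subunit of the helicase that unwinds DNA at replication, held 2 overlapping E2F matches, 3 CCAAT matches and no CHR match. Ccnb2, the mitotic cyclin B2, held 2 CHR and 3 CCAAT matches, and Cdc20, which activates the ubiquitin ligase that ends mitosis, held 1 and 2. Of the G2/M and mitosis list, 37 of 42 genes were matched to 39 promoters. A CHR match was present in 76.9% of these promoters, beside 17.9% of all 32851 promoters, and both a CHR and a CCAAT match were present in 66.7%, beside 6.95%. Of the replication and S phase list, 28 of 34 genes were matched to 33 promoters, of which 27.3% held the E2F motif, beside 1.38% of all promoters. A CCAAT match was present in 54.5% of the S phase and 76.9% of the G2/M promoters, beside 37.4% of all promoters. A match is a description of letters and does not show that a factor is bound. No promoter of the histone list was matched in the table used here.

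The cycling macrophages carried the markers of macrophages and held those of T cells and neutrophils at a small part of the level of these cells. The rule asked for C1q UMIs and for 0 Cd3 UMIs, while the T cells shown beside them were taken by their Cd3 UMIs. The C1q levels, and in part the low level of T cell markers, thus follow from the selection and are only a description. The sum of C1q UMIs per cell ran from 11 to 518 in the MWA library, with a median of 176, and from 10 to 839 in the MWA plus TIGIT library, with a median of 227. C1qa alone was above 0 in every one of these cells. As a level, in UMIs of a gene scaled to a common total of the class (CPM), C1qa stood at 4819.7 CPM and 5342 CPM in cycling and at 5227 CPM and 5682 CPM in non-cycling macrophages. Csf1r, the receptor of the growth factor on which macrophages depend, stood at 615.8 CPM and 618.2 CPM, and Lyz2, lysozyme of myeloid cells, at 11506 CPM and 13342 CPM. The T and NK cell list of 13 genes summed to 35.2 CPM and 38.2 CPM in cycling macrophages, beside 52.9 CPM and 30.0 CPM in non-cycling macrophages and 5856 CPM and 6920 CPM in T cells. None of its genes was at 0. When cells were thinned to 1000 UMIs, 3.00% (1.61 to 5.08) and 2.68% (1.47 to 4.45) of them held a UMI of this list. The neutrophil list of 7 genes summed to 59.6 CPM with 1 gene at 0, and to 113.9 CPM with none at 0, beside 76.4 CPM and 59.8 CPM in non-cycling macrophages. The 35 and 52 neutrophils of the same libraries held 177715 CPM and 183827 CPM of this list. They were taken by at least 50 UMIs of S100a8 and S100a9, which are on the list. Their high level thus follows in part from the selection and serves only as a scale. The dendritic cell list summed to 13.9 CPM and 3.74 CPM, beside 4.69 CPM and 5.64 CPM in non-cycling macrophages, and was thus higher in cycling cells of the MWA library and lower in those of the other. The B and plasma cell list, led by Ighm, summed to 41.9 CPM and 57.7 CPM, beside 48.3 CPM and 47.6 CPM in non-cycling macrophages, and the list of tumor, stroma and mast cells to 4.93 CPM and 4.71 CPM, with 8 and 7 of its 12 genes at 0. The part of these other cells in the results was not tested.

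The threshold lay within a continuous range of Mki67 and Top2a. The median of the sum was 9 UMIs in the MWA library and 10 UMIs in the MWA plus TIGIT library, and its highest value was 68 and 81. Mki67 was at 0 in 7 and 19 of the cells and Top2a in 64 and 67, and both were detected in 83.6% of the cells of each library. Just inside the threshold, 69 and 56 macrophages held exactly 3 UMIs, and just outside it 114 and 131 held 2 UMIs. Cycling macrophages were the deeper cells, with medians of 12877 and 15853 UMIs, beside 7989 and 9821.5 UMIs in non-cycling macrophages. A UMI limit on 2 genes takes deep cells more readily. List medians below are therefore also given with non-cycling cells weighted to the depth of the cycling ones. The stated filter of the study, 5000 UMIs at most, would remove 95.6% of the cycling macrophages of each library and was therefore not applied.

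Doublets were not removed, in keeping with the rule. A doublet caller marked 51 of the 433 cycling macrophages of the MWA library (11.8%) and 141 of the 523 of the MWA plus TIGIT library (27.0%), beside 6.82% and 6.26% of the non-cycling macrophages. The marked cells had medians of 14809 and 16527 UMIs and the others 12687 and 15615. A further 135 and 116 barcodes reached both the C1q and the Mki67 and Top2a limits but held a Cd3 UMI and were left out. The caller marked 63.7% and 62.9% of those. Among all barcodes with at least 3 UMIs of Mki67 and Top2a, cycling macrophages made up 47.8% and 52.9%.

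The share of macrophages that cycled was similar in the 2 libraries. In the MWA library 11.4% (10.4 to 12.4) of 3808 macrophages cycled, and 12.3% (11.4 to 13.4) of 4241 did in the MWA plus TIGIT library. The difference was 0.96 percentage points, with an interval of −0.47 to 2.39 that holds 0. Over all kept barcodes the share was 4.31% (3.92 to 4.73) and 5.28% (4.84 to 5.73), while macrophages as a whole made up 37.9% and 42.8%. In T cells, taken with at least 3 Cd3 and at most 2 C1q UMIs, 6.72% (5.89 to 7.63) and 7.56% (6.66 to 8.53) reached the same limit of Mki67 and Top2a. The T cells were shallower, with medians of 3455 and 3634 UMIs, beside 8595.5 and 10544 UMIs in macrophages. A limit in UMIs takes fewer shallow cells, so the shares of the 2 cell types cannot be compared. The MWA plus TIGIT library was deeper. When every cell was thinned to 5000 UMIs, which left out 516 and 399 shallower macrophages, the shares of macrophages were 8.76% (7.84 to 9.75) and 8.87% (8.01 to 9.80). Without called doublets they were 10.9% and 9.90%, and the difference turned to −0.96 points (−2.38 to 0.45). The order of the 2 libraries in this share thus turned when called doublets were left out, and the interval holds 0 with and without them. Thinning to 5000 UMIs also left the 2 shares close to each other. With at least 5 UMIs of Mki67 and Top2a the interval left 0 out, as given at the end.

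The cell cycle lists were graded along the UMIs of Mki67 and Top2a, the measure that chose the cells. In macrophages with 0, 1 and 2 UMIs of these genes in the MWA library, the 42 genes of the G2/M and mitosis list summed to 458.9, 820.2 and 1644 CPM. From 3 to 5 UMIs they summed to 3505 CPM and above 20 UMIs to 9685 CPM. The same list went, in the MWA plus TIGIT library, from 452.7 CPM at 0 UMIs over 1302 CPM at 2 UMIs to 8961 CPM above 20. The S phase list behaved in another way. It went from 424.8 CPM at 0 UMIs to 2697 CPM (2600 to 2796) at 6 to 10 UMIs in the MWA library, and was lower, at 1880 CPM (1811 to 1950), above 20. Its highest level in the MWA plus TIGIT library was 2875 CPM, at 11 to 20 UMIs, beside 2386 CPM above 20. The histone list stayed low until the threshold, at 596.8 CPM and 551.3 CPM with 2 UMIs, and reached 9074 CPM and 6786 CPM above 20 UMIs. Macrophages just outside the threshold had higher S phase levels than those at 0, and the 544 and 650 cells with 1 or 2 UMIs belong to neither class.

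**Figure D1:**
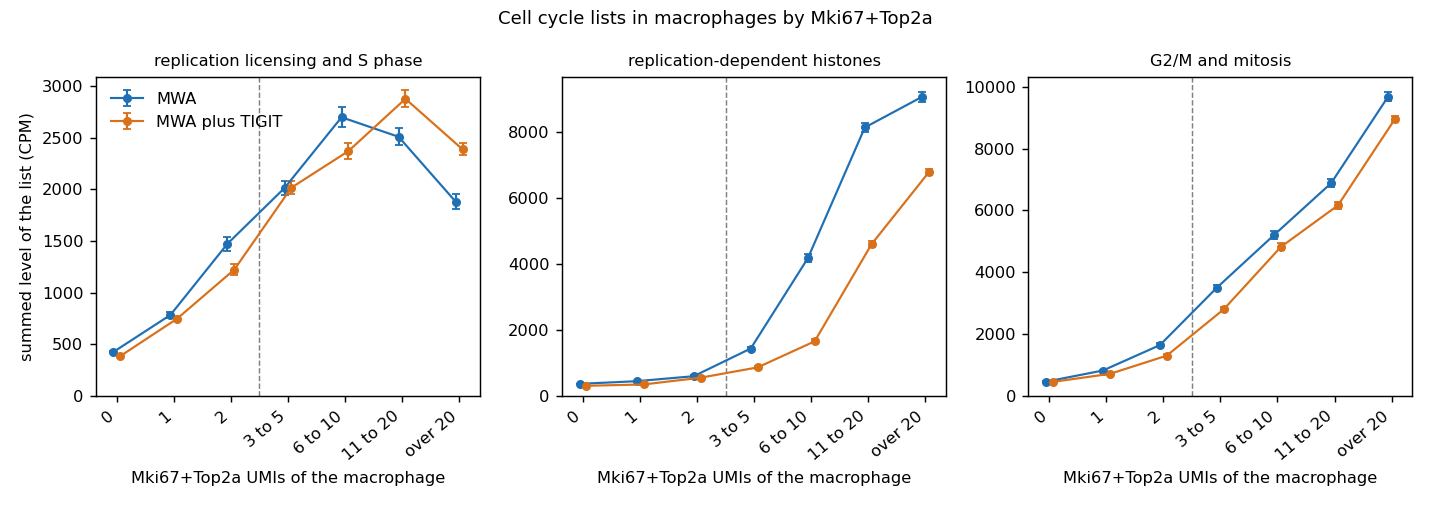
Summed level of 3 cell cycle gene lists (CPM, y axis, each panel with its own scale) in macrophages grouped by their UMIs of Mki67 and Top2a (x axis), for the MWA and the MWA plus TIGIT library. Bars are exact Poisson 95% intervals and the dashed line is the threshold of the selection. The G2/M list climbs to 9685 and 8961 CPM in the last group, while the S phase list is highest at 6 to 10 or at 11 to 20 UMIs.

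Against non-cycling macrophages, 396 of 5512 genes measured in both libraries were at least 1 higher on the log2 scale in cycling macrophages of both libraries (7.18%), and 23 were at least 1 lower in both (0.417%). The rule used this contrast, so nothing is read from these shares. Genes were counted when they reached 20 CPM in either class of each library, and the median log2 ratio of all of them was 0.12 and 0.13. All 31 measured genes of the S phase list were among the higher ones, with a median log2 ratio of 2.51 in the MWA library and 2.82 in the MWA plus TIGIT library, or 1.99 and 2.24 at the same depth. Rrm2, the subunit of ribonucleotide reductase that limits the making of DNA precursors, stood at 78.8 CPM and 87.9 CPM in cycling and at 1.74 CPM and 1.79 CPM in non-cycling macrophages. The log2 ratio of Mcm5 was 2.31 (2.11 to 2.51) and 2.61 (2.43 to 2.78). That of Pcna, the sliding clamp of the DNA polymerases, was 1.79 and 1.86, and Pcna was at 77.2 CPM and 71.2 CPM in non-cycling cells. E2f1, the factor that drives entry into S phase, had the smallest ratio of the S phase list in the MWA library, and its ratios were 1.06 and 1.29.

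In the G2/M and mitosis list 41 of 42 genes were higher, with a median log2 ratio of 5.07 and 5.12, or 5.38 and 5.22 at the same depth. Ccnb1, cyclin B1, stood at 60.0 CPM and 56.6 CPM in cycling and at 0.956 CPM and 1.47 CPM in non-cycling macrophages. Cdk1, the kinase that the mitotic cyclins activate, stood at 133.9 CPM and 134.4 CPM, beside 5.56 CPM and 5.81 CPM. Birc5, which encodes survivin of the chromosomal passenger complex, had log2 ratios of 5.11 and 5.27. Pttg1, securin, was the exception. It was at 34.8 CPM and 33.0 CPM in cycling and 37.5 CPM and 38.8 CPM in non-cycling macrophages, and its log2 ratios were −0.11 and −0.24. Among all genes, those with the highest ratios by the smaller of the 2 libraries included Nusap1 and Kif11 of the spindle, Esco2 of sister chromatid cohesion, Ncapg of condensin, Prc1 of the midzone and Hmmr. Nusap1 had log2 ratios of 7.31 and 7.59 and Esco2 of 9.10 and 7.40.

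Histone genes were the other large group. Of 17 measured genes of the replication-dependent histone list 15 were at least 1 higher in both libraries, with medians of 3.92 and 3.82, or 3.95 and 4.06 at the same depth. Hist1h1b, a linker histone, stood at 441.4 CPM and 380.3 CPM in cycling and at 7.26 CPM and 6.23 CPM in non-cycling macrophages. Hist1h2af had the highest ratio of all genes by the smaller of the 2 libraries, 9.28 and 8.11, from 0.174 CPM and 0.326 CPM in non-cycling cells. Hist1h1c and Hist1h2bc, whose RNAs are also found outside S phase, had ratios of 1.02 and 0.87 and of 0.63 and 0.59. Most histone RNAs end without a poly(A) tail and several gene copies are nearly identical, so in a 3′ assay these counts are uncertain by gene.

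The regulators of G1 divided into groups. Of 14 measured genes 3 were at least 1 higher in both libraries, and the list median was 0.23 and 0.18, or 0.39 and 0.19 at the same depth. Cdk2, the partner of the E cyclins, had log2 ratios of 1.51 and 1.81. The other members past the fold were inhibitors of Cdk4 and Cdk6, Cdkn2c with 2.44 and 2.65 and Cdkn2d with 1.80 and 1.47. Ccnd1, cyclin D1, was at 200.04 CPM and 200.2 CPM, beside 194.5 CPM and 191.3 CPM in non-cycling cells. The inhibitor Cdkn1a was at 202.5 CPM and 188.8 CPM, beside 184.5 CPM and 170.4 CPM. Summed over all cells of a class, cyclin D1 and Cdkn1a were thus at nearly the same level in both classes of macrophages. Within the cycling macrophages both differed by stage, as given below. Myc was under the level needed for the count.

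Within the cycling macrophages the S phase and the mitosis lists opposed each other. Of the UMIs that fell on either list, the share on the G2/M list had a median of 79.2% in the MWA library and 76.6% in the MWA plus TIGIT library, and ran from 11.4% or 12.5% up to 100%. In cells thinned to 5000 UMIs, the UMIs of the 2 lists correlated with a Pearson r of −0.46 over 303 cells and −0.46 over 353 cells. These cells share a library and a fixed total, and were selected on Mki67 and Top2a, so r is a description with no p. The cells formed a band with no gap. Cells with many S phase UMIs and few mitosis UMIs joined, through cells with both, to cells with many mitosis UMIs.

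**Figure D2:**
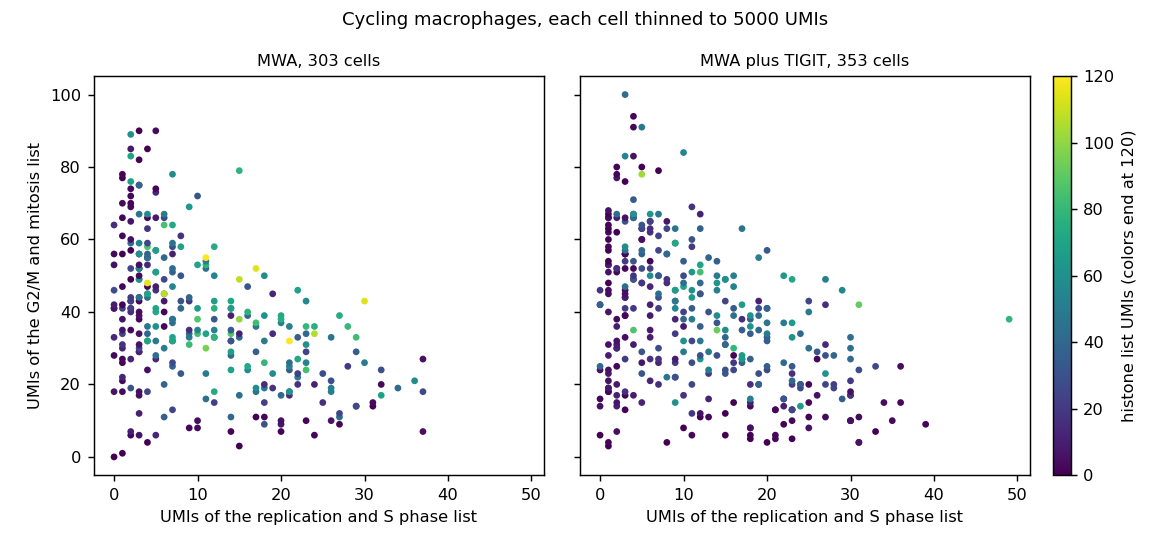
Each point is 1 cycling macrophage thinned to 5000 UMIs, with the UMIs of the S phase list on the x axis and of the G2/M list on the y axis, for the MWA library (303 cells) and the MWA plus TIGIT library (353 cells). Color gives the UMIs of the histone list, which are highest between the ends of the band.

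The cells were divided into tertiles by this share, the S-heavy, the middle and the G2/M-heavy cells. The lists of S phase and mitosis set this order, and other genes are given in it as a description. Ccne2, the cyclin E2 of the entry into S phase, went from 87.0 CPM over 20.5 CPM to 0 in the MWA library and from 122.1 CPM over 22.1 CPM to 0.847 CPM in the MWA plus TIGIT library. Cdc20 went the opposite way, from 4.0 CPM and 7.40 CPM in S-heavy cells to 133.4 CPM and 149.5 CPM in G2/M-heavy cells. Ccnd1, which did not set the order, went from 282.4 CPM over 161.7 CPM to 147.65 CPM in the MWA library. In the MWA plus TIGIT library it went from 311.9 CPM over 140.5 CPM to 134.2 CPM. Cdkn1a stood at 254.9, 196.2 and 147.65 CPM and at 198.5, 220.6 and 136.8 CPM. The histone list, which did not set the order, was highest in the middle tertile, at 9303 CPM beside 4340 and 3254 CPM in the MWA library and at 6351 CPM beside 2423 and 2649.5 CPM in the other. Median depth was 13393, 13493 and 11323.5 UMIs across the tertiles of the MWA library. It was 16810, 16625 and 12923 UMIs in the MWA plus TIGIT library. The median of Mki67 and Top2a together was 6, 15 and 7.5 UMIs and 7, 18 and 8 UMIs. The neutrophil list stood at 25.0, 127.8 and 19.6 CPM and at 25.6, 272.55 and 27.1 CPM. The T and NK cell list stood at 30.0, 41.4 and 33.9 CPM and at 23.6, 66.9 and 20.7 CPM. The part of these in the differences between the tertiles was not tested.

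Some macrophage genes also differed along this order. The 8 genes of the MHC class II list, which present antigen to CD4+ T cells, summed to 12090 CPM (11938 to 12243) in S-heavy cells and to 9089 CPM (8945 to 9234) in G2/M-heavy cells of the MWA library, with 11666 CPM in the middle. In the MWA plus TIGIT library the order was not graded, with 12541 CPM (12414 to 12669) in S-heavy, 12798 CPM (12669 to 12928) in middle and 10716 CPM (10584 to 10848) in G2/M-heavy cells. Cd74, the invariant chain, went from 5563 CPM to 4026.5 CPM and from 5851 CPM to 4905 CPM. The lipid-associated list went the other way, from 3539 CPM to 4180 CPM and from 3706 CPM to 4363 CPM, and so did the interferon gamma response list, from 1307 CPM to 1586 CPM and from 1486 CPM to 1968 CPM.

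The cycle lists were also summed in cycling T cells of the same libraries, which reached the same limit of 3 UMIs of Mki67 and Top2a. The S phase list summed to 2242 CPM and 2393.5 CPM in cycling macrophages and to 3801 CPM and 4128 CPM in the 221 and 238 cycling T cells. The G2/M list summed to 6362 CPM and 6059 CPM in cycling macrophages and to 8150 CPM and 10430.4 CPM in cycling T cells. The histone list stood at 5768.5 CPM and 3885 CPM, beside 10211 CPM and 8414 CPM. All 3 lists took a larger part of the RNA in cycling T cells of both libraries. The median depths of these T cells were 7750 and 7389.5 UMIs, beside 12877 and 15853 UMIs in cycling macrophages. In a shallower cell the same limit asks for a higher level of Mki67 and Top2a in CPM, so the 2 classes were not selected alike. The part of this in the difference was not tested. Levels in CPM depend on how much other RNA a cell holds, and that was not measured here.

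Genes of macrophage identity stayed on in cycling macrophages, mostly at slightly lower levels in CPM. Of 15 genes of the macrophage core list none was past the fold, 13 were lower and 2 higher in both libraries, and the list median was −0.28 and −0.29, or −0.36 and −0.31 at the same depth. Apoe, which carries lipids, stood at 9734 CPM and 12947 CPM, beside 14555 CPM and 18159 CPM in non-cycling cells. Cx3cr1, the receptor of fractalkine, was among the 2 higher genes, with 739.3 CPM and 764.0 CPM beside 618.2 CPM and 609.2 CPM. In the list of growth factor receptors and related factors none of 13 genes was past the fold and the median was −0.17 and −0.27, or −0.15 and −0.20 at the same depth. Csf1r had log2 ratios of 0.03 and 0.03, and turned to −0.00 and −0.01 when non-cycling cells were weighted to the same depth.

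The lists with the most genes past the fold in the lower direction were those of hypoxia, of Arg1, of monocytes and of stress. Of all 5512 genes 0.417% were past it in this direction in both libraries. Fewer were past it with non-cycling cells weighted to the same depth, as given at the end. All 11 measured genes of the hypoxia list were lower in both libraries, 5 of them past the fold, with a median of −0.87 and −1.10. Vegfa, the growth factor of blood vessels, stood at 51.4 CPM and 42.1 CPM, beside 114.1 CPM and 111.3 CPM in non-cycling macrophages. Hilpda, which blocks the breakdown of stored fat under low oxygen, had log2 ratios of −1.31 and −1.97. With non-cycling cells weighted to the same depth, the list median was −0.59 and −0.80 and all 11 genes stayed below 0. The glycolysis list had 12 of 12 genes lower, none past the fold, with a median of −0.23 and −0.44, or −0.22 and −0.38 at the same depth.

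In the lipid-associated list 12 genes were measured, of which 11 were lower in both libraries and 1 was past the fold, with a median of −0.71 and −0.69. The gene past the fold was Gpnmb, a glycoprotein of lipid-loaded macrophages, at 5.63 CPM and 9.18 CPM beside 26.9 CPM and 29.9 CPM. Fabp5, a fatty acid carrier, had log2 ratios of −1.01 and −0.85. Lgals3, galectin 3, stood at 1159.6 CPM and 1141 CPM, beside 2041 CPM and 2229.8 CPM. Weighted to the same depth, the median was −0.69 and −0.71 and all 12 genes were below 0 in both libraries.

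In the Arg1 list 2 of 9 genes were past the fold, Thbs1 with −1.30 and −1.30 and Mmp12 with −1.18 and −2.16, and the median was −0.73 and −0.84, or −0.75 and −0.94 at the same depth. Without called doublets the median of the Arg1 list was −0.77 and −1.05. Arg1 itself, the enzyme that breaks down arginine, stood at 867.2 CPM and 1194 CPM, beside 1326 CPM and 2123 CPM. In the monocyte list 2 of 6 measured genes were past the fold, Ly6c2 with −1.26 and −1.66 and Plac8 with −1.18 and −2.18, and the median was −0.76 and −0.74, or −0.68 and −0.87 at the same depth. Ccr2, the receptor that brings monocytes into tissue, had −0.22 and 0.02. In the Selenop Mrc1 list 1 of 9 genes was past the fold, Igf1 with −1.09 and −1.22, and the median was −0.39 and −0.45, or −0.47 and −0.62 at the same depth. Mrc1, the mannose receptor, went the other way with 0.34 and 0.31.

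Inducible heat shock genes were among the lowest. Hspb1 stood at 2.46 CPM and 4.83 CPM in cycling and at 66.7 CPM and 98.1 CPM in non-cycling macrophages, with log2 ratios of −4.76 and −4.34. Hspa1a had −1.59 and −2.04 and Hspa1b −2.14 and −2.56, and these 2 genes are near-identical copies whose reads can be split between them. Weighted to the same depth, Hspa1a was at −1.0 and −0.74. In the dissociation and stress list, to which Hspa1a and Hspa1b belong, no other of 10 genes was past the fold, and the median was −0.14 and 0.03. At the same depth it was 0.09 and 0.06, so its sign turned in the MWA library. Fos, which is induced when tissue is dissociated, was at 2228 CPM and 2248 CPM, beside 2081 CPM and 1820.5 CPM.

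Among the immune response lists the medians of interferon gamma and chemokines lay near 0, and those of type I interferon, MHC class II and the ligands were lower. The interferon gamma response list had a median log2 ratio of 0.08 and 0.11, or 0.12 and 0.14 at the same depth, with none of 11 genes past the fold. Psmb9, a subunit of the immunoproteasome, stood at 253.2 CPM and 273.3 CPM, beside 180.4 CPM and 191.1 CPM. The type I interferon list had all 6 measured genes lower and a median of −0.51 and −0.31, or −0.32 and −0.27 at the same depth, with Irf7, a factor that amplifies the interferon response, at −0.85 and −0.75. All 7 measured MHC class II genes were lower, at a median of −0.39 and −0.41. Weighted to the same depth the medians were −0.01 and −0.24, and without called doublets they were −0.50 and −0.68. The type I interferon medians were −0.61 and −0.56 without called doublets. Of 16 chemokines 1 was past the fold, Ccl5 with −1.10 and −1.48, and the median was −0.08 and 0.13. At the same depth it was −0.24 and −0.04, so its sign turned in the MWA plus TIGIT library. Ccl2, which attracts monocytes, stood at 1082 CPM and 888.1 CPM, beside 914.2 CPM and 638.1 CPM. Of the ligands of TIGIT and PD-1, Pvr had log2 ratios of −0.62 and −0.60 and Cd274, PD-L1, had −0.75 and −0.42. Their median of −0.68 and −0.51 was −0.58 and −0.17 at the same depth.

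**Figure D3:**
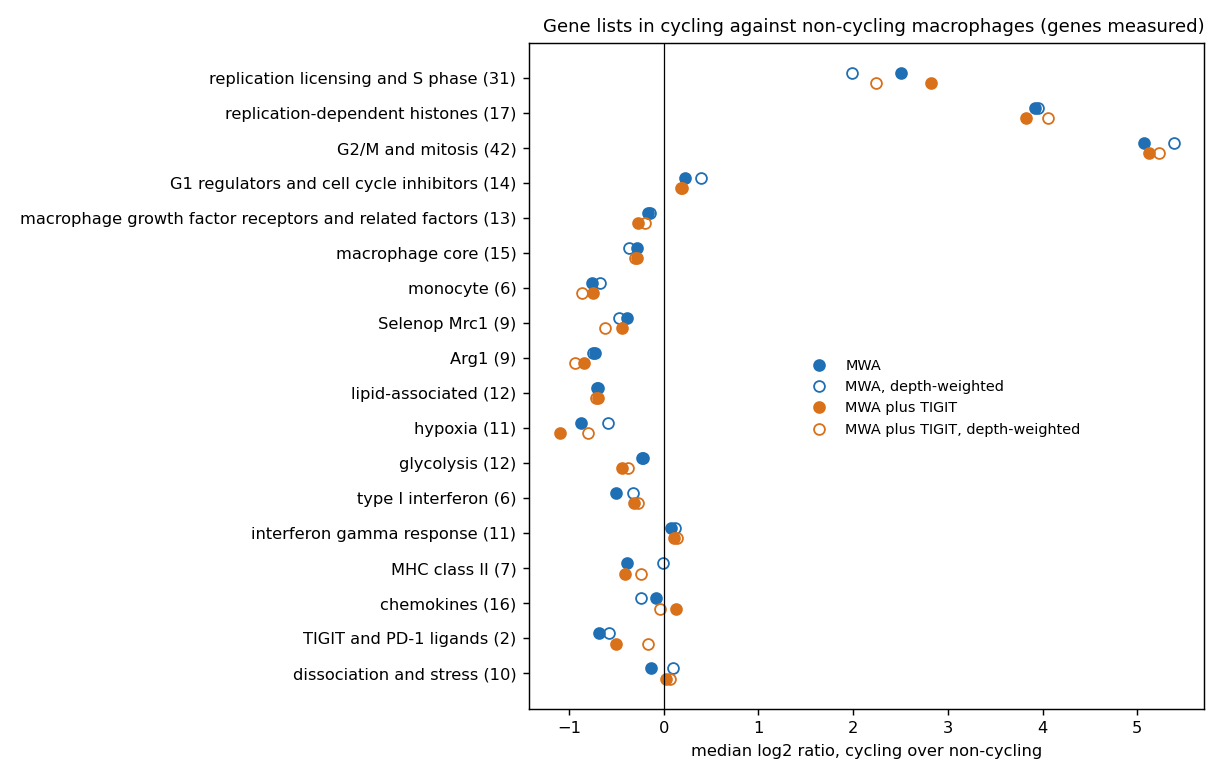
Median log2 ratio of the genes of each list (rows, number of measured genes in brackets) between cycling and non-cycling macrophages of the MWA and the MWA plus TIGIT library. Open points repeat it with non-cycling cells weighted to the same depth. The 3 lists of S phase, histones and G2/M lie between 1.99 and 5.38, and the hypoxia list is the lowest of the others in both libraries when unweighted.

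The same contrast, read from the side of all macrophages, gave the share that cycled at each level of a list. Macrophages thinned to 5000 UMIs were sorted into tertiles by the UMIs of each list. For the lipid-associated list 14.4% (12.5 to 16.4) of the lowest and 3.44% (2.40 to 4.78) of the highest tertile cycled in the MWA library. The shares in the MWA plus TIGIT library were 16.7% (14.7 to 18.9) and 3.03% (2.20 to 4.06). For the macrophage core list the share went from 13.2% to 3.26% and from 13.6% to 4.07%, and for hypoxia from 11.7% to 3.70% and from 12.6% to 4.21%. The high tertiles of these 3 lists thus held a smaller share of cycling cells than the low tertiles in each library. The intervals cover counting error among cells of the same library only. The difference between tertiles is therefore a description with no test.

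Other lists gave a weaker or an opposite order. For the interferon gamma response the share was 6.31% in the lowest and 11.7% in the highest tertile of the MWA library, and 4.40% (3.41 to 5.58) and 12.7% (10.9 to 14.8) in the MWA plus TIGIT library. For the Arg1 list the lower tertiles were alike and the highest was lower, at 10.3%, 9.47% and 5.81% in the MWA library and 11.2%, 11.4% and 4.72% in the other. For chemokines the share was nearly level, at 8.59% and 8.57% and at 8.12% and 9.39% in the lowest and highest tertiles. For the monocyte list it was 8.73% and 8.18% and 9.70% and 7.02%. For MHC class II it was 9.98% (8.41 to 11.7) and 6.91% (5.46 to 8.60) in the MWA library. In the MWA plus TIGIT library it was 10.5% (8.80 to 12.3) and 7.59% (6.25 to 9.10). The tertiles of these lists were likewise not tested against each other. Cells were thinned to 1 total, which the cycle genes share with every other list. Without thinning, the S phase, histone and G2/M lists summed to 2242, 5768.5 and 6362 CPM in cycling macrophages of the MWA library. They summed to 424.8, 364.5 and 458.9 CPM in its non-cycling macrophages. In the MWA plus TIGIT library they held 2393.5, 3885 and 6059 CPM, beside 384.5, 306 and 452.7 CPM. The part of this in the shares was not tested.

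**Figure D4:**
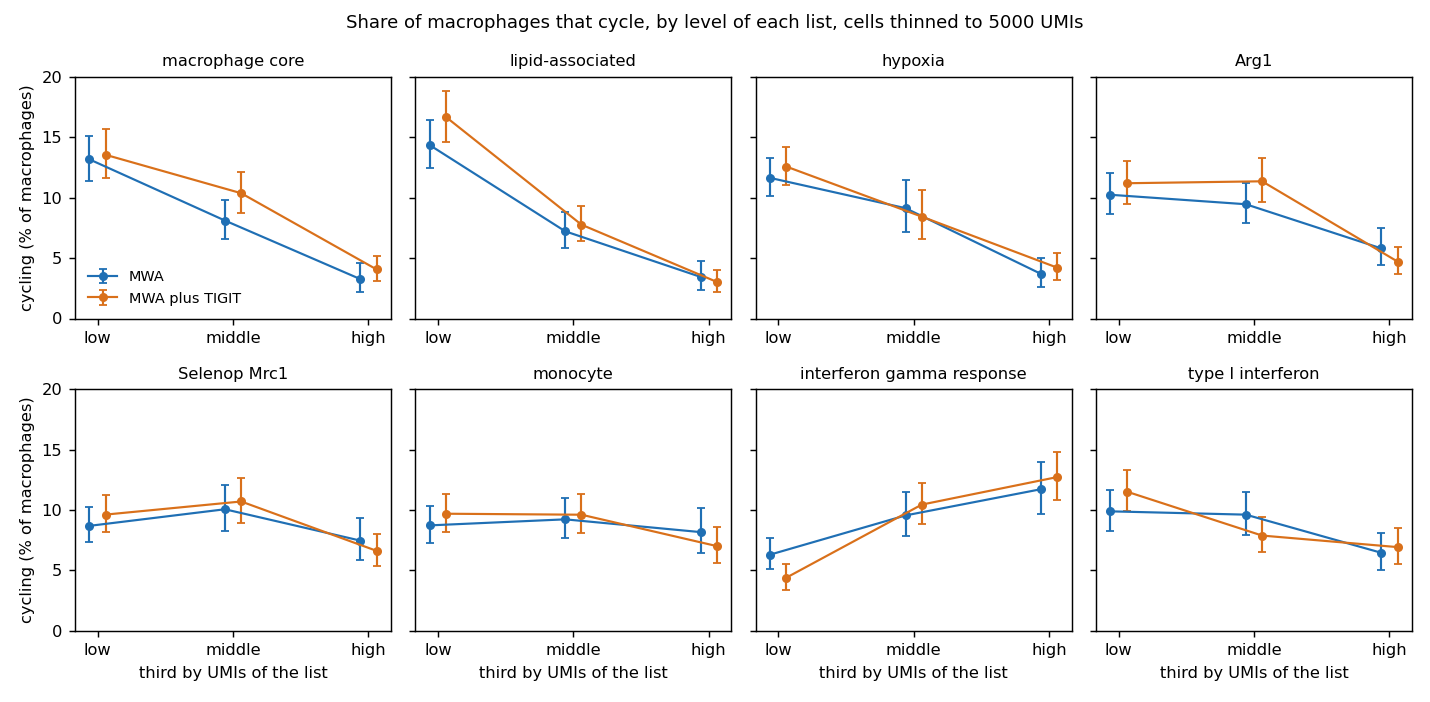
Share of macrophages that were cycling (%, y axis from 0) in tertiles of the UMIs of 8 gene lists (x axis), for the MWA and the MWA plus TIGIT library, with all cells thinned to 5000 UMIs and exact binomial 95% intervals. The share falls from 14.4% to 3.44% and from 16.7% to 3.03% for the lipid-associated list and climbs from 6.31% to 11.7% and from 4.40% to 12.7% for the interferon gamma response.

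Between the libraries, few genes differed in cycling macrophages. The question of this comparison is what anti-TIGIT adds to MWA in the distant tumor. A gene was counted when it reached 20 CPM in either library and 20 UMIs in both together, which held for 5658 genes. Of these 44 were at least 0.5 higher on the log2 scale in the MWA plus TIGIT library (0.778%) and 26 at least 0.5 lower (0.46%). In non-cycling macrophages 30 of 5046 genes were past the fold in the higher direction (0.595%) and 14 in the lower (0.277%). The median log2 ratio of all genes was 0.04 in both classes. With TMM scaling 37 genes were higher and 34 lower, so the part of the higher ones among all genes past the fold went from 62.9% to 52.1%. It was 37.5% among genes with at least 100 CPM, where 3 were higher and 5 lower, 48.8% with no filter on low genes and 46.6% with the upper limit of 5000 UMIs. No side prevailed in every setting.

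Several of the most different genes came from 1 cell each. S100a9, a protein of neutrophils, had a log2 ratio of 4.63 (3.74 to 5.70), from 10 UMIs in 10 cells of the MWA library and 361 UMIs in 18 cells of the MWA plus TIGIT library. A single cell held 342 of the 361 UMIs, together with 334 of 386 UMIs of S100a8 and 66 UMIs of Retnlg. That cell had 5101 UMIs, 10 C1q UMIs, the lowest number the rule admits, and 12 UMIs of Mki67 and Top2a. Without the highest cell of each library the ratio of S100a9 was 0.54 (−0.68 to 1.86) and that of S100a8 0.16 (−0.50 to 0.84). Another cell of the MWA plus TIGIT library held 475 of 490 UMIs of Retnla and was called a doublet, and a further one 133 of 178 UMIs of Saa3. The ratio of Retnla went from 2.59 to −1.39, and that of Saa3 from 0.93 to −0.14. In non-cycling macrophages Retnla and Saa3 were also higher in the MWA plus TIGIT library, with ratios of 2.32 (2.01 to 2.65) and 1.69 (1.48 to 1.91), while S100a9 and S100a8 had −1.14 and −0.36. In cycling macrophages the values of these 4 genes rest largely on 1 cell for each gene.

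Some of the lowest genes also had most of their UMIs in 1 cell, but not all of these ratios went away without it. Ctsk, Mmp9 and Acp5, which encode the proteases cathepsin K and MMP9 and the tartrate-resistant phosphatase of bone-resorbing cells, had log2 ratios of −6.67, −6.02 and −1.59. The same single cell of the MWA library held 251 of 349 UMIs of Ctsk, 198 of 222 of Mmp9 and 383 of 657 of Acp5. It had 36115 UMIs, 259 C1q UMIs and 11 UMIs of Mki67 and Top2a, was not called a doublet, and was also the highest cell for Atp6v0d2, a proton pump subunit, and Slc9b2, with 16 and 17 UMIs. Without the highest cells the ratio of Acp5 was −0.37 (−0.61 to −0.13), while Ctsk stayed at −5.16 and Mmp9 at −3.13. Ctsk was detected in 7 cells of the MWA library, and 98 of its UMIs there lay outside the highest cell. Arhgef40, of which the cell described here held 0 UMIs, went from −0.74 to 0.04 without its own highest cells.

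For other genes the highest cells decided less of the ratio. Chil3, a chitinase-like protein of monocytes and of alternatively activated macrophages, stood at 10.4 CPM and 33.3 CPM and was detected in 20 of 433 cells of the MWA library and in 65 of 523 cells of the MWA plus TIGIT library. Its log2 ratio was 1.68 (1.27 to 2.11), and 0.66 (0.55 to 0.78) in non-cycling macrophages. Lpl, lipoprotein lipase, had 1.07 (0.70 to 1.45), beside 0.42 in non-cycling cells. Slc7a2, a carrier of arginine, stood at 56.5 CPM and 90.2 CPM, a ratio of 0.68 (0.49 to 0.87), beside 1.04 in non-cycling cells. Ccl8, a chemokine, had 0.66 (0.53 to 0.80), beside 0.47. Zfand2b and 4833420G17Rik completed the 10 highest, with 0.74 and 0.82. Chil3, Lpl, Slc7a2 and Ccl8 were higher in the MWA plus TIGIT library in cycling and non-cycling macrophages alike. Over the other settings the lowest ratio in cycling macrophages was 1.04 for Chil3 and 0.94 for Lpl. With cells thinned to 5000 UMIs it was 0.22 for Ccl8 and 0.35 for 4833420G17Rik, under the fold. With the upper limit of 5000 UMIs it was 0.26 for Slc7a2.

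Among the genes that were lower in the MWA plus TIGIT library, Hes1, a repressor downstream of Notch, stood at 129.7 CPM and 74.9 CPM, and its log2 ratio was −0.79 (−0.95 to −0.64), beside −0.71 in non-cycling macrophages. Gm10076, which shares its sequence with a ribosomal protein gene, had −1.09 in cycling and −1.09 in non-cycling macrophages, and −1.11 in cycling T cells. Its ratio was thus nearly the same in macrophages and in T cells. Gm49980, Gm42047 and Hist1h2br, with −1.19, −0.79 and −0.86, completed the 10 lowest.

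The histone Hist1h2ap stood at 2082 CPM (11834 UMIs) in the MWA library and 894.0 CPM (7402 UMIs) in the MWA plus TIGIT library, a log2 ratio of −1.22 (−1.26 to −1.18). In cycling T cells it had −0.87 (−0.92 to −0.82) and in non-cycling macrophages −0.97. The whole histone list had −0.57 (−0.59 to −0.55) in cycling macrophages, and −0.30 (−0.33 to −0.27) when Hist1h2ap was left out. In cycling T cells the list without Hist1h2ap had 0.04 (0.01 to 0.08). The S phase list summed to a ratio of 0.09 and the G2/M list to −0.07, and none of their genes was past the fold between the libraries. Of the histone list Hist1h1a, with −0.51, also passed it, and so did Hist1h3b, which is not on the list, with −0.52.

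**Figure D5:**
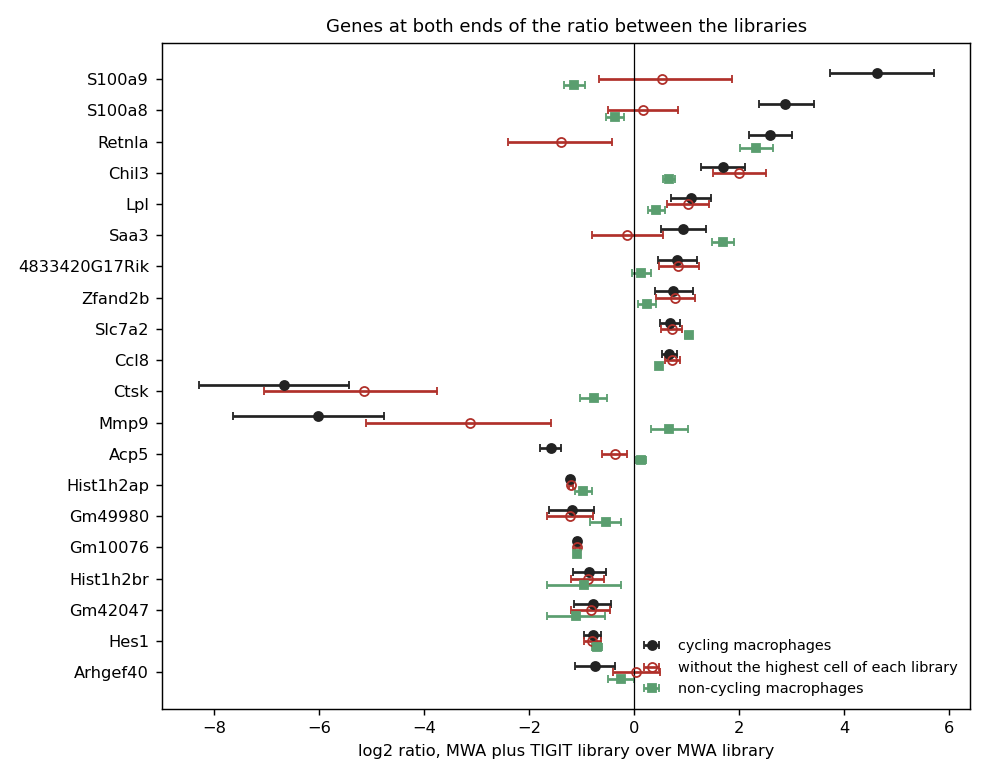
Log2 ratio between the MWA plus TIGIT and the MWA library (x axis) for the 10 highest and 10 lowest genes in cycling macrophages, with 95% counting intervals. Filled circles show all cycling macrophages, open circles the same without the highest cell of each library, and squares non-cycling macrophages. S100a9 moves from 4.63 to 0.54 and Retnla from 2.59 to −1.39 without 1 cell per library, while Chil3 and Hist1h2ap stay at 1.99 and −1.21.

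Most genes of the macrophage state lists were not past the fold between the libraries. Of all 5658 genes 0.778% were past it in the higher direction and 0.46% in the lower. In several of these lists the part past it was larger, on counts of 1 or 2 genes. Chil3 and Ccl8 are each on 2 lists. Of the Arg1 list 2 of 9 genes were past the fold, Chil3 and Spp1. Spp1, osteopontin, stood at 264.8 CPM and 389.0 CPM and had 0.55 (0.47 to 0.64), and Arg1 had 0.46 (0.41 to 0.51), beside 0.26 and 0.68 in non-cycling macrophages. Of the interferon gamma response list 2 of 13 genes were past the fold, Nlrc5 and Socs1, with 0.57 and 0.57 and at most 20.2 CPM, and the median was 0.25, beside 0.07 in non-cycling macrophages. Of 16 chemokines 2 were higher, Ccl8 and Cxcl9. Cxcl9, which attracts T cells, stood at 295.4 CPM and 455.9 CPM, with 0.63 (0.54 to 0.71) beside 0.40 in non-cycling cells. The neutrophil attractant Cxcl2 had −0.49 (−0.53 to −0.44), beside −0.44.

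The ligands of TIGIT and PD-1 were low in these cells, and Cd274 was the only one of the list counted between the libraries. Cd274 stood at 20.2 CPM and 31.6 CPM and had 0.65 (0.32 to 0.97), beside 0.31 in non-cycling macrophages. Pvr, the main ligand of TIGIT, was at 15.5 CPM and 14.3 CPM, and the interval of its ratio, −0.12 (−0.53 to 0.30), holds 0. Nectin2, a weaker ligand of TIGIT, was at 4.57 CPM and 3.62 CPM.

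Of the remaining lists, the core list had a median log2 ratio between the libraries of 0.13 with no gene of 15 past the fold. MHC class II had 0.14, glycolysis 0.02 and the growth factor receptors −0.05, also with none past the fold. Hilpda was the only gene of the hypoxia list past it, with −0.67 (−0.93 to −0.41), beside −0.01 in non-cycling macrophages. Lpl was the only one of the lipid-associated list and Chil3 of the monocyte list, and the type I interferon list had Usp18 and Ifit3, with 0.63 and 0.56. Of the Selenop Mrc1 list Ccl8 and Igf1 were past the fold, the latter with 0.59 (0.23 to 0.95). The differences between cycling and non-cycling ratios were not tested.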

How the data were processed

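The authors sequenced 3′ libraries of the 10x Genomics type (version 3.1) from CD45+ cells of un-ablated tumors. What they deposited are UMI counts of 32285 genes per barcode, made with Cell Ranger on mm10 and not normalized. The submitters' processing notes give version 6.1.1 and the header of the deposited counts 4.0.0. Of 10217 and 10190 barcodes, 10037 and 9913 were kept, those that reached 200 genes and did not pass 10% mitochondrial UMIs. No cell annotation by the authors was used, and DoubletFinder was not run.

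UMIs were summed per class and library and divided by their total (CPM) in Python 3.11.15 (pandas 2.3.3, scipy 1.17.1, numpy 2.4.6). Genes past the fold were those with a log2 ratio of at least 0.5 between libraries, or at least 1 between classes in both libraries, at 20 CPM and, between libraries, 20 UMIs. Only in the setting with no filter on low genes were 0.5 UMIs added to each sum. TMM factors came from edgeR 4.0.16 in R 4.3.3. Thinning drew UMIs without replacement. Doublets were scored among simulated sums of 2 barcodes, which made up a share of 0.25 of all profiles, on 20 principal components. The ratio and interval steps were tested on simulated data.

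The members and lists were chosen with earlier results of these data known. Of 324 list genes 323 were found, and the values of some are not reported here. Named genes were list genes with at least 20 UMIs in the members, the 10 highest and 10 lowest between the libraries, and the 15 highest and 15 lowest between the classes. Partner genes of single cells, the leading genes of marker lists, Xist and the Y-linked genes were named after their values were seen. Leaving out the highest cell of each library was also added then.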

Additional observations from a re-analysis of the deposited data

Results flagged for a closer look

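S100a8 and S100a9, which encode the subunits of calprotectin, abundant in neutrophils, moved in opposite directions between cycling and non-cycling macrophages in the 2 libraries. The log2 ratio of S100a8 was −1.93 in the MWA library and 1.31 in the MWA plus TIGIT library, and that of S100a9 was −3.72 and 2.05. The difference between the libraries was not tested. In the MWA plus TIGIT library 1 cell with 5101 UMIs held 94.7% of the S100a9 and 86.5% of the S100a8 UMIs of the cycling macrophages. Without the highest cell of each class the ratios were −2.66 and −1.77 for S100a9 and −1.29 and −1.34 for S100a8.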

How the results depend on the processing

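No paired analysis was possible because each group has 1 library, and for the same reason no replicate could be left out. The share of macrophages that cycled was 11.4% in the MWA library and 12.3% in the MWA plus TIGIT library. It was 8.76% and 8.87% with cells thinned to 5000 UMIs, 14.4% and 15.4% with at least 2 UMIs of Mki67 and Top2a, 8.30% and 9.60% with at least 5, and 3.68% and 5.75% among the 516 and 400 macrophages under the limit of 5000 UMIs. Without called doublets 382 of 3515 macrophages cycled in the MWA library and 382 of 3857 (9.90%) in the MWA plus TIGIT library. The difference was then −0.96 points. With no marker UMIs of other lineages 351 of 3175 cycled in the MWA library and 409 of 3619 (11.3%) in the other. With at least 5 UMIs the interval of the difference, 0.03 to 2.56 points around 1.30, left 0 out. The other limits on C1q and mitochondrial UMIs moved no share beyond its interval.

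Between the libraries 44 genes were higher and 26 lower in the MWA plus TIGIT library. The counts were 2486 and 2605 with no filter on low genes, 3 and 5 with at least 100 CPM, 314 and 220 with cells thinned to 5000 UMIs, 201 and 230 with the upper limit of 5000 UMIs, and 61 and 52 without called doublets. Leaving out the highest cell of each library, chosen after seeing the data, gave 44 and 25 genes, of which 39 and 23 were in the first counts. It turned Retnla to −1.39, Saa3 to −0.14 and Arhgef40 to 0.036. With non-cycling cells weighted to the same depth 12 genes in place of 23 were lower in cycling macrophages. For these changes the cause was not tested. Depth limits genes under about 20 CPM, which rest on few UMIs of 433 or 523 cells.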
